A study of Mus musculus with 6 samples.

Results

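The AP-1 transcription factor family was followed in muscle stem cells (MuSCs), the PAX7-expressing cells that repair skeletal muscle, by RNA-seq of control, mdx and Sirt6mKO/mdx mice. It was taken as the 10 genes Fos, Fosb, Fosl1, Fosl2, Jun, Junb, Jund, Atf3, Maff and Batf, which were found by gene symbol among 22706 genes. These genes were chosen by their measured values in the same 6 libraries, so their differences between groups are given as a description, without a test. AP-1 factors are pairs of basic leucine zipper proteins. JUN proteins can pair with each other, FOS proteins need a JUN partner, and ATF, MAF and BATF proteins join either class or bind related DNA sites. In most tissues Fos, Jun and Atf3 are immediate early genes, which growth factors, calcium, cyclic AMP and stress kinases switch on within minutes. In MuSCs their RNA is known to appear both on activation by injury and while muscle is being dissociated.

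Each group held 2 libraries, which the methods of the study describe as biological replicates. Control mice were wild type, mdx mice lack dystrophin through a point mutation, and Sirt6mKO/mdx mice are mdx mice whose Sirt6 gene, encoding a histone deacetylase, was in addition deleted in the muscle lineage by a constitutively active Cre under the Pax7 promoter. The labels give the strain of all groups as C57BL/6, and the methods describe adult male mice. MuSCs were freshly sorted from limb and trunk muscle that had been digested with dispase and collagenase, as cells without Sca1, CD45 and CD31 and with Integrin-a7 and CD34 or a fluorescent reporter. Which of these gates was used for which group, and how long each digestion lasted, were not given.

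The libraries held between 4397487 and 9743972 approximate reads, and between 18983 and 20614 genes had a value above 0. All values are normalized read counts, that is, read counts divided by the authors by 1 size factor per library and rounded. The MuSC marker Pax7 stood at 2754 and 2932 for control, 2167 and 2521 for mdx, and 3236 and 2433 for Sirt6mKO/mdx, and the myogenic factor Myod1 between 251 and 495 in all 6 libraries. Sirt6 stood between 30 and 41 everywhere, but 91.5% of its exon bases lie outside the deleted exons 4 to 6, so a value per gene cannot check the deletion. Both control libraries held Xist, the RNA of the inactive X chromosome, at 16772 and 12950, against at most 34 in the other 4 libraries. The Y-linked gene Ddx3y was at 3 and 8 in control and between 1024 and 1767 elsewhere, so the control libraries went against the stated sex. Sex and genotype therefore cannot be told apart in either comparison with control. The comparison of Sirt6mKO/mdx with mdx compares no control library. In these sorted but bulk samples, fewer cells of a type and less RNA per cell cannot be told apart.

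Upstream sequences of the family are shown first, because 9 members were lowest in mdx, the pattern by which they were chosen. RefSeq starts on GRCm38.p6 were matched for 9 of the 10 genes, with 11 starts in all since Maff has 3, and Fosl1 was not matched. The 250 bases upstream of each start were searched on both strands for the cyclic AMP response element (CRE, TGACGTCA), for its core TGACG, which the full element contains on both strands, and for the related site TGACATCA, known from the Jun promoter. Capitals mark these letters, or their reverse complement, in the 6 sequences below, which run 5′ to 3′ along the gene and end just before its start. They are Fos at chr12:85473640-85473889 (plus strand), Fosb at chr7:19310046-19310295 (minus strand), Junb at chr8:84978749-84978998 (minus strand), Jun at chr4:95052223-95052472 (minus strand), Atf3 at chr1:191183334-191183583 (minus strand) and the second Maff start at chr15:79347270-79347519 (plus strand).
Fos: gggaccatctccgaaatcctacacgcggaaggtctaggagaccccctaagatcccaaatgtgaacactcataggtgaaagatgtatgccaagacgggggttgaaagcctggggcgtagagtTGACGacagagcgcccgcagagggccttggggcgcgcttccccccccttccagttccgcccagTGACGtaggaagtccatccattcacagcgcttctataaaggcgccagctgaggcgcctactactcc
Fosb: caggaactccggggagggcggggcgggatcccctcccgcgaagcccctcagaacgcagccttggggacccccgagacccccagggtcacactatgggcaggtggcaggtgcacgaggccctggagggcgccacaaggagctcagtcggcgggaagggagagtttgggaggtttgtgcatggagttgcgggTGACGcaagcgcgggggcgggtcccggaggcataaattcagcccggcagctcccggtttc
Junb: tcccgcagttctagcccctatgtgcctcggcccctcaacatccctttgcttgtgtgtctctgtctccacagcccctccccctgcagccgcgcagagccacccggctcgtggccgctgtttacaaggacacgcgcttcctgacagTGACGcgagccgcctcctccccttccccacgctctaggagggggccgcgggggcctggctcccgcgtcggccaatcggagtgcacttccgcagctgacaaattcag
Jun: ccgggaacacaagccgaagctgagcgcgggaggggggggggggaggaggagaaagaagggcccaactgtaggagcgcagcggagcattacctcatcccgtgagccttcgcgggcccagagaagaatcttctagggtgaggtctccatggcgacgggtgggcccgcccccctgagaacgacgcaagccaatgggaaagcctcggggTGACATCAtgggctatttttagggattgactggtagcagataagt
Atf3: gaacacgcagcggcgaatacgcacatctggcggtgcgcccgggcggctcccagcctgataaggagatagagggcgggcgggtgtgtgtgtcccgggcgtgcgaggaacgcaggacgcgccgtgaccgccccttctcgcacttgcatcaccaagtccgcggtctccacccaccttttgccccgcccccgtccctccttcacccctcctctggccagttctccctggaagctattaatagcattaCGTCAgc
Maff: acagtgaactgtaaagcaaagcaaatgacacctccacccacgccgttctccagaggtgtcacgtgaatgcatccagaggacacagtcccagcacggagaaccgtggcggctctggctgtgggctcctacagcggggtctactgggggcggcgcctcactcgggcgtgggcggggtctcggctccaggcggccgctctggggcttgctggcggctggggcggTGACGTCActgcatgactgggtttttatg

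The CRE core was found upstream of 7 of the 11 starts, in Fos, Fosb, Junb, Atf3, Batf and at 2 starts of Maff, and it was present in 17.8% of the 32851 promoters of the table. Fos held it at positions -129 and -66 counted from the start, Fosb at -60, Junb at -106 and Atf3, on the minus strand, at -7. The full CRE occurred only at the second Maff start, at -29, and in 1.55% of all promoters. The Jun-type site stood at -45 in Jun and at -45 in the third Maff start, against 2.93% of all promoters. The AP-1 site itself, searched as TGANTCA, was in none of the 11 windows and in 6.75% of all promoters. A CArG box, the site of serum response factor, was likewise in none of the windows and in 1.47% of all promoters. Bases farther upstream than these windows were not searched, so a CArG box or AP-1 site there would have been missed. Fos carried a TATA box (TATAAA, given strand only) at -33, as did 7.59% of all promoters. GC boxes (GGGCGG) lay in 8 of the 11 windows, against 32.7% of all promoters, and CCAAT boxes in 2, Jun and Junb, against 33.8%. Jund and Fosl2 held neither a CRE core nor a Jun-type site in this window, and for Jund the RefSeq start lies 1210 bases before the GENCODE transcript, whose own upstream bases were not searched. These matches describe letters and were not tested as binding sites.

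**Figure D1:**
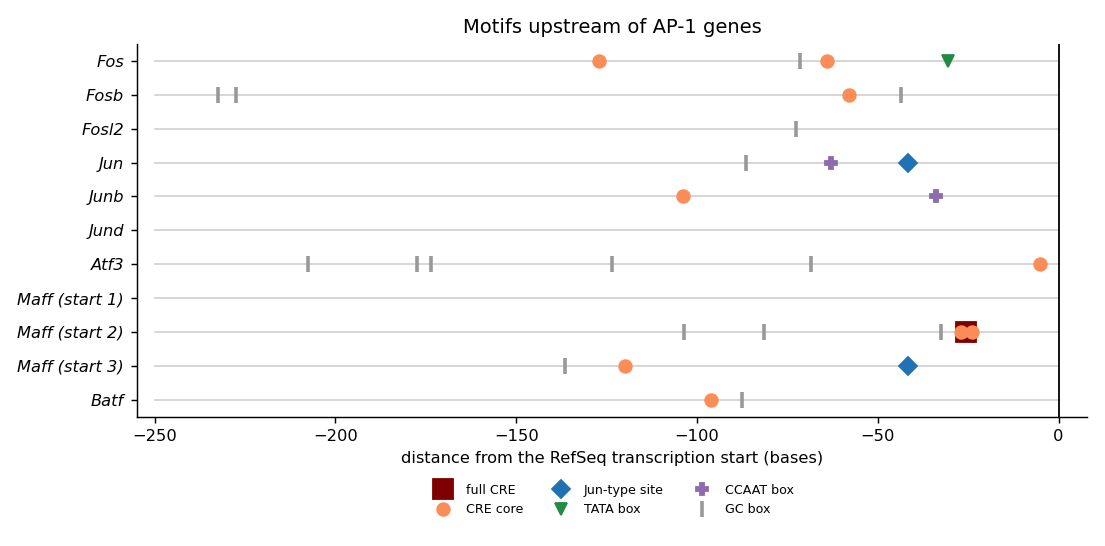
Positions of motifs in the 250 bases upstream of 11 RefSeq starts of 9 AP-1 genes. The x axis gives the distance from the start in bases, each row is 1 start, and symbols stand for motifs by name. Core CRE matches lie between -129 and the start, and the Jund row and the row of the Maff start 1 hold no symbol.

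FOS subfamily genes encode the partners that cannot bind DNA without JUN. Fos (ENSMUSG00000021250, GRCm38 chromosome 12, 85473890 to 85477273, plus strand, 4 exons) stood at 10775 and 14930 normalized reads for control, 1654 and 1921 for mdx, and 8993 and 10412 for Sirt6mKO/mdx. Both mdx libraries were below all others, and the Sirt6mKO/mdx libraries lay below both controls. Its log2 fold change was -2.83 ± 0.35 (SE of the fit over all 6 libraries, here and below) in mdx against control, 2.44 ± 0.35 in Sirt6mKO/mdx against mdx and -0.39 ± 0.35 in Sirt6mKO/mdx against control.

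Fosb (ENSMUSG00000003545, chromosome 7, 19302721 to 19310045, minus strand) encodes a FOS protein known for long-lived spliced forms, which values per gene cannot separate. It had 12211 and 9940 for control, 713 and 862 for mdx, and 9323 and 8506 for Sirt6mKO/mdx. The ratio of the control mean to the mdx mean was 14.1. The log2 fold change of Fosb was -3.81 ± 0.31 in mdx against control and 3.50 ± 0.31 in Sirt6mKO/mdx against mdx. Between Sirt6mKO/mdx and control it was -0.31 ± 0.31, no larger than its SE.

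Fosl2 (ENSMUSG00000029135, chromosome 5, 32136472 to 32157831, plus strand) encodes FRA-2, a FOS protein without the strong activation domain of c-FOS. It reached 5677 and 4539 for control against 431 and 455 for mdx. In Sirt6mKO/mdx it reached 2365 and 2003, between the other groups and overlapping neither. Its log2 fold changes were -3.52 ± 0.26 in mdx against control, 2.29 ± 0.26 in Sirt6mKO/mdx against mdx and -1.22 ± 0.26 in Sirt6mKO/mdx against control. The mean of Fosl2 in Sirt6mKO/mdx was 42.8% of the control mean.

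Fosl1 (ENSMUSG00000024912, chromosome 19, 5447703 to 5455945, plus strand) encodes FRA-1 and was the least abundant FOS gene. Its values were 190 and 180 for control, 22 and 31 for mdx, and 111 and 155 for Sirt6mKO/mdx. The groups kept the same order as for Fosl2 without overlap. Fold changes of Fosl1 were -2.78 ± 0.37, 2.28 ± 0.37 and -0.49 ± 0.37 on the log2 scale in mdx against control, Sirt6mKO/mdx against mdx and Sirt6mKO/mdx against control. Ccdc85b overlaps Fosl1 on the opposite strand, and whether the counting used strand was not stated, so reads of this pair cannot be assigned with certainty.

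The principal transcript of each JUN subfamily gene has 1 exon. Jun (ENSMUSG00000052684, chromosome 4, 95049034 to 95052222, minus strand), the founding partner of FOS, had 8115 and 8818 for control, 1903 and 2212 for mdx, and 7048 and 7934 for Sirt6mKO/mdx. Both Sirt6mKO/mdx values were below the lower control, and the lower of them was 3.19 times the higher mdx value. Its log2 fold changes were -2.04 ± 0.32 in mdx against control and 1.87 ± 0.32 in Sirt6mKO/mdx against mdx, and its mean in Sirt6mKO/mdx was 88.5% of the control mean. The antisense gene Junos overlaps Jun and shares its uncertainty about strand.

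Junb (ENSMUSG00000052837, chromosome 8, 84976909 to 84978748, minus strand) encodes a JUN protein that in many settings acts more weakly on growth genes than c-JUN. It stood at 7612 and 5478 for control, 579 and 795 for mdx, and 5643 and 6341 for Sirt6mKO/mdx. Here the Sirt6mKO/mdx libraries fell inside the range of the controls. The log2 fold change of Junb was -3.25 ± 0.30 in mdx against control, 3.14 ± 0.30 in Sirt6mKO/mdx against mdx and -0.11 ± 0.30 in Sirt6mKO/mdx against control, with a 95% interval from -0.75 to 0.53 for the last.

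Jund (ENSMUSG00000071076, chromosome 8, 70697739 to 70700616, plus strand) is known as the JUN gene that resting cells express steadily. Its values were 1766 and 1431 for control, 565 and 499 for mdx, and 2140 and 1841 for Sirt6mKO/mdx. Among the 9 members other than Batf it had the smallest difference between mdx and control, a log2 fold change of -1.58 ± 0.25. It was also the only one of the 9 whose mean in Sirt6mKO/mdx, 125% of the control mean, was above control. That difference of 0.32 ± 0.25 on the log2 scale turned to -0.28 when the summed values of the libraries were made equal. Gm11175, an antisense gene, overlaps Jund. The deposited span of Jund begins 1210 bases before its GENCODE transcript, whose 1668 exon bases cover part of the 2878 bases of the span, so its level per kilobase may be set too high.

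Atf3 and Maff, outside the FOS and JUN subfamilies, had the largest differences between mdx and control. Atf3 (ENSMUSG00000026628, chromosome 1, 191170296 to 191183340, minus strand), a stress-induced factor that pairs with JUN proteins, had 3264 and 5358 normalized reads in control against 77 and 121 in mdx. In Sirt6mKO/mdx it had 1391 and 1925, of which the lower was 11.5 times the higher mdx value, and both were below the controls. The log2 fold change of Atf3 was -5.42 ± 0.30 in mdx against control, 4.07 ± 0.30 in Sirt6mKO/mdx against mdx and -1.35 ± 0.30 in Sirt6mKO/mdx against control. Its Sirt6mKO/mdx mean was 38.5% of the control mean, the lowest such share in the family.

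Maff (ENSMUSG00000042622, chromosome 15, 79347541 to 79359072, plus strand) encodes a small MAF protein, which lacks an activation domain of its own. It was at 1799 and 1961 for control, 109 and 98 for mdx, and 1153 and 1156 for Sirt6mKO/mdx. The 3 groups were again separate, with Sirt6mKO/mdx at 61.4% of the control mean. Log2 fold changes of Maff were -4.17 ± 0.23, 3.47 ± 0.23 and -0.70 ± 0.23 in the order used above.

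Batf (ENSMUSG00000034266, chromosome 12, 85686669 to 85709087, plus strand), a partner of JUN best known from T cells, was near the limit of detection. It had 14 and 0 for control, 7 and 10 for mdx, and 3 and 11 for Sirt6mKO/mdx, from at most 13 reads in a library. All groups overlapped, and the SE of each fold change was 1.23 on the log2 scale. No difference of Batf was detectable at this depth.

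**Figure D2:**
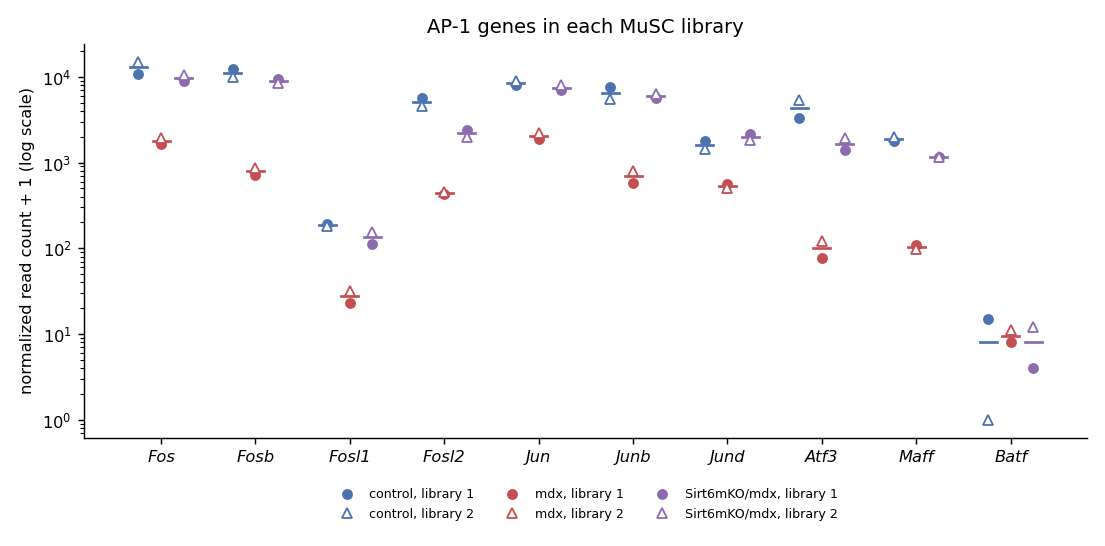
Normalized read count plus 1 (log axis) of the 10 AP-1 genes in each library. Circles are library 1, triangles library 2, and bars the mean of each group. For the 9 genes other than Batf both mdx points lie below all other points, and Batf has a value of at most 14 in every library.

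Across the family, 9 of 10 members were lower in mdx than in control by the criteria used for all genes, an adjusted p of at most 0.05 and a change of at least 2-fold, while 7.34% of the 15915 genes tested were lower and 6.89% higher. In all 3 comparisons the criteria are used only to count, since the members were chosen with the values of these libraries known. The median log2 fold change of the members was -3.04, against 0.00 over all genes tested. In Sirt6mKO/mdx against mdx, 9 of 10 were higher, with 5.62% of all genes higher and 2.54% lower, and the medians were 2.37 and 0.02. These 9 became 8 without the Sirt6mKO/mdx library 1 and 7 without library 2, and none met the criteria when 1 prior variance was used for all genes, a setting in which the lowest adjusted p of any gene in this comparison was 0.054 by limma. In Sirt6mKO/mdx against control none was higher and 2 were lower, Fosl2 and Atf3, beside 5.19% of all genes higher and 2.68% lower. The median of the members was -0.35 there. When the summed values of the libraries were made equal, the median of all genes moved to -0.58 in both comparisons of Sirt6mKO/mdx, and the calls became 479 higher and 2932 lower against mdx and 455 higher and 2692 lower against control. In place of 895 higher and 405 lower, and of 826 higher and 427 lower, most calls were then lower. The same 9 members were still higher than in mdx, by 1.24 (Jun) to 3.44 (Atf3) on the log2 scale, and Maff joined Fosl2 and Atf3 as lower than in control. Neither gene met the criteria without either Sirt6mKO/mdx library, with no minimum mean or with 1 prior variance, and 1 of them did without the control library 2. The 3 comparisons share libraries, so an error in the mdx values of a gene would move both comparisons with mdx.

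**Figure D3:**
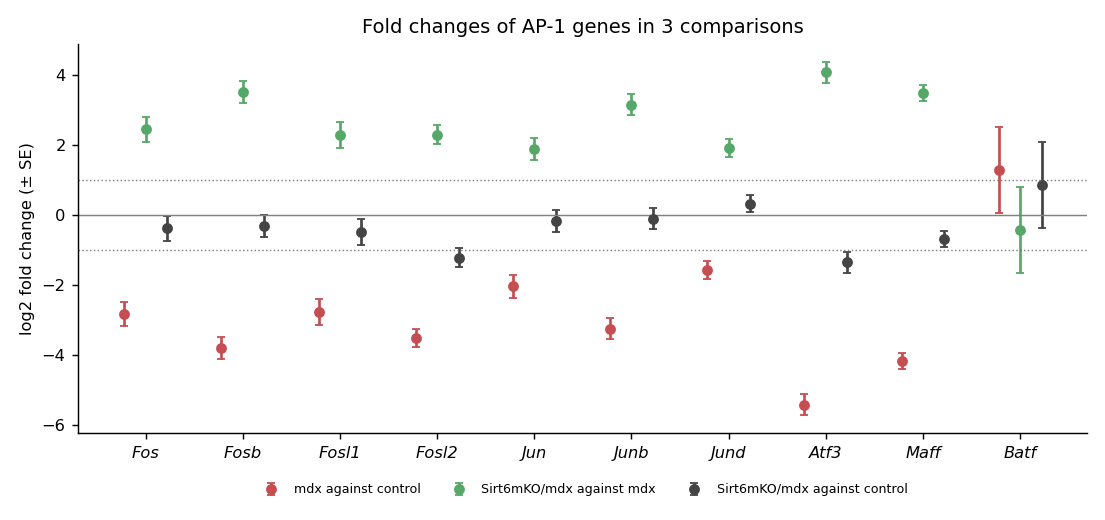
Log2 fold change with its SE (y axis) of each AP-1 gene in 3 comparisons (colours), from 1 fit over 6 libraries. Dotted lines mark a 2-fold change. Red points (mdx against control) lie between -5.42 and -1.58 and green points (Sirt6mKO/mdx against mdx) between 1.87 and 4.07 for 9 genes. Black points (Sirt6mKO/mdx against control) lie between -1.35 and 0.32 for the same 9, and Batf has the widest bars.

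To compare levels between genes, values were divided by the length of the merged exons of each gene. Summed over the 10 genes, the level per kilobase was 17490 and 18710 for control, 2222 and 2564 for mdx, and 13440 and 14660 for Sirt6mKO/mdx. Both Sirt6mKO/mdx libraries lay between the other groups, closer to control. As a share of all normalized reads of a library, without length, AP-1 RNA made up 0.774% and 0.946% for control, 0.095% and 0.125% for mdx, and 0.397% and 0.453% for Sirt6mKO/mdx. This share placed Sirt6mKO/mdx further from control than the level did. The 10 most abundant genes held 32.6% and 30.0% of the Sirt6mKO/mdx libraries, against 21.7% and 11.7% of the controls. Without the top 10 genes of each library the shares were 0.989% and 1.07%, 0.123% and 0.162%, and 0.589% and 0.648% in the same order.

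The composition of the family moved as well. Jun made up 14.5% and 14.8% of the summed level per kilobase for control, 26.9% and 27.1% for mdx, and 16.4% and 17.0% for Sirt6mKO/mdx. Jund held 6.05% and 4.58%, then 15.2% and 11.7%, then 9.55% and 7.53%. Among the 9 members other than Batf, these 2 genes had the smallest differences in mdx and so took a larger share of what was left. Atf3 went the other way, from 9.41% and 14.4% in control to 1.75% and 2.38% in mdx, with 5.22% and 6.62% in Sirt6mKO/mdx. Fosb had 11.2% and 8.55% for control, 5.17% and 5.41% for mdx, and 11.2% and 9.34% for Sirt6mKO/mdx. The size of these shares depended on the length used. Without division by length Fosb held 23.7% and 18.9%, 11.8% and 12.3%, and 24.4% and 21.1% in the same order, again lowest in mdx.

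Fos was the most abundant member per kilobase in every group. It took 26.2% and 33.9% of the level for control, which spanned the 31.6% and 31.9% for mdx and the 28.5% and 30.2% for Sirt6mKO/mdx. In control Junb came next after Fos, and Jun, Atf3 and Fosb followed in an order that changed when the length of the longest principal transcript replaced that of merged exons. JUN genes together made up 44.7% and 35.5% of the level for control, 56.5% and 55.9% for mdx, and 49.2% and 48.4% for Sirt6mKO/mdx. The ratio of FOS to JUN levels was 0.932 and 1.29 for control, 0.699 and 0.714 for mdx, and 0.854 and 0.86 for Sirt6mKO/mdx. With the other length it was 1.19 and 1.58, 0.837 and 0.856, and 1.08 and 1.07, so the order of the groups was the same while the position relative to equal levels depended on the length used.

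**Figure D4:**
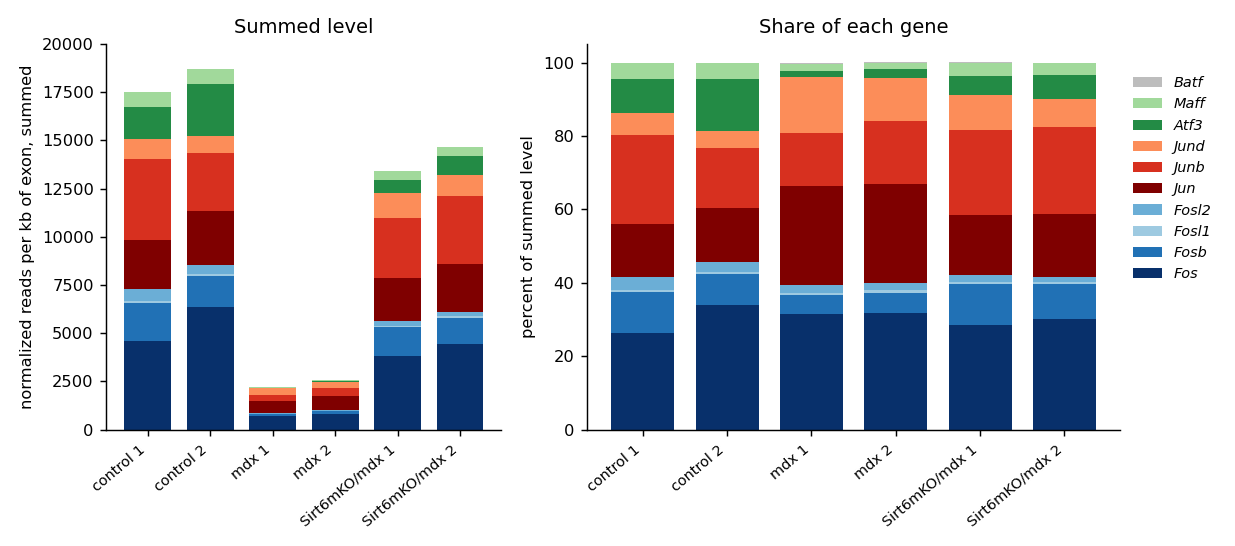
AP-1 level in each library, stacked by gene. The left panel gives normalized reads per kilobase of merged exon, summed from 2222 in the mdx library 1 to 18710 in the control library 2, and the right panel the percent of that sum. Jun and Jund (dark red and orange) take more of the mdx bars, and Atf3 (dark green) less.

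Profiles of the 9 members other than Batf were compared by the root mean square difference of their log2 values, each centred on its mean over the 6 libraries, so that 0 means equal fold changes. The closest pairs were Fos and Fosl1 (0.20), Fosb and Maff (0.25), Fosb and Junb (0.26) and Jun and Jund (0.30). Among these 9, Jund and Atf3 were farthest apart, at 1.63. Outside the family, among 9666 genes with a mean of at least 50, the 5 profiles closest to Fos over 6 libraries were Dnajb4 (0.15), Arid5b (0.19), Cyr61 (0.21), Ppp1r15a (0.23) and Myc (0.25). Closest to Jun were Gcc1 (0.05), Myd88 (0.08), Ccnl1 (0.11), Dnaja1 (0.12) and Runx1 (0.16). Gcc1 stood at 565 and 669 for control, 134 and 164 for mdx, and 491 and 583 for Sirt6mKO/mdx. The likest to Atf3 were the orphan nuclear receptor Nr4a1 (0.32) and the cochaperone Dnajb1 (0.32), then Csrnp1 (0.43), Dusp8 (0.49) and Gm17056 (0.58). Atf3 thus had more distant neighbours than Jun or Fos.

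Dimer partners outside the family were examined in a list of 20 bZIP genes, of which 18 were tested. In mdx against control 9 were lower and none higher, beside 7.34% of all genes lower and 6.89% higher, with a median log2 fold change of -1.01. Mafk, a small MAF gene like Maff, stood at 2230 and 2293 for control, 215 and 239 for mdx, and 1670 and 1353 for Sirt6mKO/mdx. It was lower in mdx by limma (log2 fold change -3.31 ± 0.24, adjusted p = 5.7e-07) and higher in Sirt6mKO/mdx than in mdx (2.72 ± 0.24, adjusted p = 7.1e-06). Cebpb, a CCAAT enhancer binding factor of inflammation and differentiation, had 292 and 343, 18 and 27, and 279 and 303 in the 3 groups. Its log2 fold changes were -3.78 ± 0.32 (adjusted p = 2.4e-06) and 3.66 ± 0.32 (adjusted p = 7e-06).

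Cebpd, its relative, had 2612 and 1275 for control, 167 and 247 for mdx, and 2660 and 4109 for Sirt6mKO/mdx, both of the last above the controls. It fell in mdx (-3.16 ± 0.34, adjusted p = 1.8e-05) and was higher in Sirt6mKO/mdx than in mdx (4.02 ± 0.34, adjusted p = 4.4e-06). Partners lower in mdx also included Mafg, Creb5, Ddit3, Bach1 and Atf4, with log2 fold changes from -1.37 to -1.14. Of these Ddit3 was higher again in Sirt6mKO/mdx (1.18 ± 0.30, adjusted p = 0.0237), as was Jdp2 (1.05 ± 0.29, adjusted p = 0.0338), and in all 6 of 18 partners were higher in that comparison and none lower, beside 5.62% and 2.54% of all genes. The 6 became 3 without any 1 of the mdx and Sirt6mKO/mdx libraries, 3 with no minimum mean and 0 with 1 prior variance for all genes. Against control no partner passed in Sirt6mKO/mdx by limma, while 6 had an unadjusted p under 0.05 and the median was -0.27. With the summed values of the libraries made equal, 6 partners were lower than in control, and against mdx 3 were higher and 1 lower.

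Regulators, a list of 31 factors, kinases and ligases that act on AP-1 genes or proteins, had a median log2 fold change of -0.07 in mdx. There 4 of 31 were lower and none higher, beside 7.34% and 6.89% of all genes. Crem, a cyclic AMP responsive factor that also yields an inducible repressor, had 817 and 521 for control, 100 and 80 for mdx, and 528 and 372 for Sirt6mKO/mdx. It was lower in mdx (-2.85 ± 0.29, adjusted p = 1.3e-05) and higher in Sirt6mKO/mdx than in mdx (2.30 ± 0.29, adjusted p = 0.0002). The p38 kinase kinase Map2k3 went from 523 and 497 to 144 and 210 in mdx (-1.55 ± 0.27, adjusted p = 0.00131) and stood at 316 and 400 in Sirt6mKO/mdx (1.03 ± 0.27 against mdx, adjusted p = 0.0292). Crem and Map2k3 were the 2 of 31 regulators higher in that comparison, where none was lower, beside 5.62% and 2.54% of all genes. Map2k3 was not called without any 1 of the mdx and Sirt6mKO/mdx libraries, nor with equal summed values, when 1 regulator was higher and 6 were lower.

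The histone and CREB kinase Rps6ka5 (607 and 403 in control, 208 and 141 in mdx) and the stress kinase Map3k5 (772 and 460, 239 and 268) were the other regulators lower in mdx. Their log2 fold changes were -1.52 ± 0.29 (adjusted p = 0.00241) and -1.23 ± 0.28 (adjusted p = 0.00704). Against control 1 of 31 was called in Sirt6mKO/mdx, the ternary complex factor Elk3, with 80 and 114 against 168 and 325 (-1.28 ± 0.35, adjusted p = 0.0326). No regulator was called there without the control library 2 or any 1 of the mdx and Sirt6mKO/mdx libraries, while 9 were lower with equal summed values. The ERK, JNK and p38 kinase genes Mapk3, Mapk8, Mapk9 and Mapk14 and the factors Srf and Creb1 passed in none of the 3 comparisons, with log2 fold changes from -0.92 (Srf in mdx) to 0.79 (Srf in Sirt6mKO/mdx against mdx). Srf had 382 and 411 for control, 200 and 219 for mdx, and 401 and 326 for Sirt6mKO/mdx. In mdx it missed the criteria only through the 2-fold cut (-0.92 ± 0.25, adjusted p = 0.022 by limma). Against mdx its adjusted p in Sirt6mKO/mdx was 0.0648 (0.79 ± 0.25). These values measure the RNA of such genes and not the activity of their proteins.

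Targets, a list of 32 genes with well-known AP-1 sites, went in both directions. Of 26 tested, 10 were lower and 4 higher in mdx, beside 7.34% and 6.89% of all genes, and the median was -0.86. Without the mdx library 1 the counts were 12 lower and 1 higher. The growth factor Hbegf (136 and 129 for control, 15 and 7 for mdx, and 84 and 58 for Sirt6mKO/mdx) and the sphingosine kinase Sphk1 (320 and 157, 10 and 31, and 170 and 158) had both mdx libraries below all others. In mdx their log2 fold changes were -3.56 ± 0.49 (adjusted p = 0.00017) and -3.59 ± 0.48 (adjusted p = 0.00015).

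Lif, a cytokine of the interleukin 6 family, was low in both dystrophic groups. It had 154 and 189 for control, 12 and 10 for mdx, and 14 and 17 for Sirt6mKO/mdx. Its log2 fold change was -3.84 ± 0.52 in mdx against control (adjusted p = 0.00017) and -3.38 ± 0.52 in Sirt6mKO/mdx against control (adjusted p = 0.00093). The 4 targets higher in mdx were the matrix genes Spp1 and Tnc, the protease inhibitor Timp1 and the filament gene Vim. Spp1 rose from 9 and 43 to 162 and 129 (2.79 ± 0.54, adjusted p = 0.00272) and was at 164 and 266 in Sirt6mKO/mdx. Tnc rose from 48 and 140 to 447 and 596 (2.64 ± 0.45, adjusted p = 0.00099) and Timp1 from 41 and 29 to 161 and 138 (2.08 ± 0.40, adjusted p = 0.00241). Vim rose from 2763 and 3662 to 9252 and 9368 (1.55 ± 0.38, adjusted p = 0.0115).

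In Sirt6mKO/mdx against mdx 10 of 26 targets were higher and 1 was lower, beside 5.62% and 2.54% of all genes, with a median of 0.86. The 10 became 4 without either Sirt6mKO/mdx library and 5 without the mdx library 2, and with equal summed values 7 were higher and 4 lower. Those higher included Mt2, a metallothionein, at 585 and 375 in mdx and 2340 and 2510 in Sirt6mKO/mdx (2.37 ± 0.43, adjusted p = 0.00349). The one lower was Ccnd1, the G1 cyclin D1, which had 352 and 851 for control, 930 and 1217 for mdx, and 207 and 251 for Sirt6mKO/mdx (-2.22 ± 0.34, adjusted p = 0.00094). It was not called without the Sirt6mKO/mdx library 1, with no minimum mean or with 1 prior variance for all genes. Against control, Ccnd1 was also lower in Sirt6mKO/mdx (-1.26 ± 0.34, adjusted p = 0.0315), 1 of 3 targets lower and 4 higher there, beside 2.68% and 5.19% of all genes. With equal summed values 7 were lower and 2 higher, and without the Sirt6mKO/mdx library 2 there was 1 lower and none higher. Spp1 (3.32 ± 0.54, adjusted p = 0.0014), Tnc (1.83 ± 0.45, adjusted p = 0.0196) and Timp1 (1.54 ± 0.40, adjusted p = 0.0251) were among the higher ones.

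Counts over partners, regulators and targets together, 75 genes tested, were 4 higher and 23 lower in mdx (all genes, 6.89% and 7.34%), 18 higher and 1 lower in Sirt6mKO/mdx against mdx (5.62% and 2.54%), and 4 higher and 4 lower in Sirt6mKO/mdx against control (5.19% and 2.68%). With equal summed values they were 11 higher and 11 lower against mdx and 2 higher and 22 lower against control, so the balance of directions in both comparisons of Sirt6mKO/mdx depended on the scaling. The 19 calls in Sirt6mKO/mdx against mdx became 10 without the mdx library 2, 8 without the Sirt6mKO/mdx library 1, 9 without library 2 and 0 with 1 prior variance for all genes. The 8 calls against control became 4 without the control library 2, 3 without either mdx library, 4 without the Sirt6mKO/mdx library 1 and 1 without library 2. For partners alone, the 9 lower in mdx became 4 without the mdx library 1 and 6 without either the mdx library 2 or the control library 1.

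Other immediate early genes moved with the family. In a list of 27 genes of the immediate early and dissociation response without AP-1 members, 26 were lower in mdx and none higher (median -2.72), beside 7.34% and 6.89% of all genes. In Sirt6mKO/mdx 25 were higher than in mdx and none lower (median 2.62), beside 5.62% and 2.54%. With 1 prior variance the 26 became 20 and the 25 became 0. That this list moved was known from earlier work on these libraries, so it is not independent of the family's pattern. Nr4a1 had 5322 and 6521 for control, 163 and 219 for mdx, and 3436 and 3416 for Sirt6mKO/mdx (-4.96 ± 0.26, adjusted p = 2.6e-08, then 4.17 ± 0.26, adjusted p = 3.6e-07). The heat shock cochaperone Dnajb1 had 26187 and 36763, 942 and 1533, and 15031 and 16194 (-4.69 ± 0.40 in mdx, adjusted p = 2.4e-06). The antiproliferative gene Btg2 stood at 5489 and 5385, 432 and 374, and 4982 and 6248 (3.79 ± 0.27 in Sirt6mKO/mdx against mdx, adjusted p = 1.1e-06).

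Nr4a2 (245 and 347, 30 and 5, 370 and 160), Nr4a3 (1042 and 1054, 44 and 77, 628 and 423) and Ier3 (826 and 335, 56 and 41, 735 and 622) had both mdx libraries below all others too. Against control 2 genes of the list were higher in Sirt6mKO/mdx, Ier5 (1.34 ± 0.37, adjusted p = 0.0338) and Gadd45g (1.04 ± 0.25, adjusted p = 0.019), and 2 were lower, Zfp36 (-1.03 ± 0.23, adjusted p = 0.0142) and Nr4a3 (-1.02 ± 0.30, adjusted p = 0.047), beside 5.19% of all genes higher and 2.68% lower. Those 4 calls all disappeared without either Sirt6mKO/mdx library, and with equal summed values 10 genes of the list were lower and none higher. The part of cell isolation in the level of the AP-1 genes was not tested, since no library was made from muscle fixed before digestion.

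**Figure D5:**
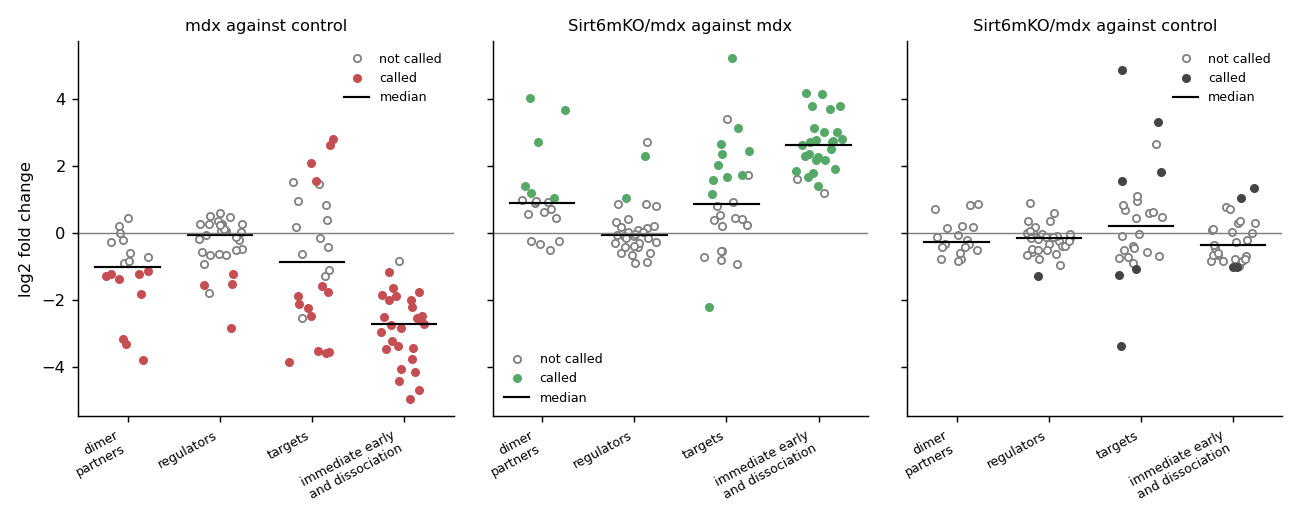
Log2 fold change (y axis) of each tested gene of 4 lists in 3 comparisons (panels). Filled points met the criteria of an adjusted p of at most 0.05 and a 2-fold change, open points did not, and bars are medians. The immediate early list lies below 0 in mdx against control (median -2.72) and above 0 in Sirt6mKO/mdx against mdx (median 2.62), while regulators centre on -0.07 in both.

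Markers of other cells were summed per library beside these results. The 10 MuSC markers summed to 31706 and 29415 for control, 30584 and 23595 for mdx, and 23351 and 27008 for Sirt6mKO/mdx. Single MuSC markers went different ways: Sdc4 had 7692 and 6224 for control, 1100 and 1049 for mdx, and 2753 and 2822 for Sirt6mKO/mdx, lowest in mdx as the AP-1 genes were. Vcam1 (3730 and 3697, 7031 and 5753, and 2413 and 4302) and Cdh15 (1508 and 1497, 2818 and 2220, and 1545 and 1640) were highest in mdx. The 7 endothelial markers gave 908 and 759, 412 and 408, and 612 and 644, lower in mdx as the AP-1 genes were, with Tek holding most of the sum and Cldn5, Emcn or Kdr at 0 in some libraries. The 6 smooth muscle and pericyte markers gave 1597 and 2725, 3609 and 3599, and 1530 and 2148, highest in mdx. Acta2 held most of that sum and was itself highest in mdx (807 and 1604, 2837 and 2334, and 924 and 1558). Cspg4 was lowest there (127 and 106, 81 and 84, and 142 and 102) and Myh11 was highest in Sirt6mKO/mdx. For Kcnj8, Rgs5 and Tagln groups overlapped. The 8 leukocyte markers summed to between 101 and 248, highest in Sirt6mKO/mdx at 248 and 215. The 6 erythroid markers gave 71 and 23, 9 and 17, and 45 and 95, lowest in mdx, and Ptprc, which encodes CD45, was at most 19 in any library. The 12 myofibre markers gave 9165 and 11224, 7388 and 2512, and 14735 and 6817, with the lowest mean in mdx and overlap between mdx and Sirt6mKO/mdx. Among them Myh2 (671 and 1892, 285 and 103, and 1127 and 767) and Acta1 (2239 and 2394, 1194 and 421, and 3105 and 1396) had both mdx libraries below all others, as did Mb, Myh1 and Tnnc2. The rest did not follow this pattern. Mylpf (911 and 658, 1491 and 341, and 2637 and 789) had its mdx library 1 above both controls, as did Myl1 and Pvalb. For Ckm, Myh4, Tnnt3 and Actn3 the mdx libraries overlapped those of another group. The 8 fibro-adipogenic markers ranged from 20887 to 39032, mostly Col3a1, and were higher in mdx than elsewhere. The 5 Schwann cell markers ranged from 463 to 1120, largely Pmp22. No marker was at 0 in all 6 libraries, and the part of these cells in the AP-1 values was not tested.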

How the data were processed

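RNA of freshly sorted mouse MuSCs was measured in 6 libraries, 2 each of control, mdx and Sirt6mKO/mdx, grouped by their labels. According to the methods of the study, total RNA was depleted of ribosomal RNA and sequenced on the Ion Torrent platform. Reads were aligned by the authors with STAR to the mouse genome (GRCm38) and counted per gene with featureCounts. The submitters' processing notes also name FastQC, DESeq2 and DESeq. The deposited values are whole numbers of unit score, that is, read counts that the authors had divided by 1 size factor per library and rounded. Size factors recovered from gaps in the values ranged from 0.537 to 1.53, and 3 reads in a library correspond to values between 1.96 and 5.58, which covers counting error only.

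Because the values are not raw counts, limma 3.58.1 in R 4.3.3 was applied to log2(value + 1) in 1 fit of all 6 libraries, with no block and with a mean-dependent prior variance (trend). The added 1 shrinks fold changes of low genes, but a value of 0 can enlarge them. Batf had means of 7 in control and 8.5 in mdx and yet a log2 fold change of 1.28. Tested genes had a mean of at least 5 over the libraries (15915 of 22706). Called genes had a two-sided Benjamini-Hochberg adjusted p of at most 0.05 over all tested genes and an absolute log2 fold change of at least 1. All adjusted p-values in the text are from this fit. The p-values rest on the spread between the 2 libraries of each group, pooled over the 3 groups and moderated by the prior variance. This prior, taken from genes of similar mean, had a median of 12.1 degrees of freedom.

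The members and gene lists were chosen with earlier results of these data known. All members are named. Results of some listed genes are not reported here. From each list, up to 4 called genes per direction and comparison are named, taking the largest fold changes among those whose libraries did not overlap and whose mean reached 50. Genes named as members of a count of 5 or fewer, single kinases and factors, and most marker genes were chosen after their values were seen. Gene positions are those of the deposited table, and exon lengths are from GENCODE mouse release M21 (GRCm38), which held 98.5% of the gene identifiers, and promoter sequences from RefSeq (GRCm38.p6). The length of the longest principal transcript was added as an alternative after seeing the data. Alternatives were 2 pseudocounts, 2 minimum means, 2 scalings, 2 prior variances, a replicate block and leaving out each library. For the shares of members, values without division by length were used as well.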

Additional observations from a re-analysis of the deposited data

How the results depend on the processing

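The direction of the members' median was kept under all alternatives run. It was -3.25 in mdx against control with a minimum mean of 50, which removes Batf, and with summed values made equal (total counts) it was 1.74 in Sirt6mKO/mdx against mdx and -0.95 against control. Leaving out 1 library gave -3.25 to -2.87, 2.29 to 2.54 and -0.49 to -0.27. In mdx against control, 9 members met the criteria in every setting except 1 prior variance for all genes (8). In Sirt6mKO/mdx against mdx that setting left none of the 9. Against control, the 2 lower members became none with no minimum mean, with 1 prior variance and without either Sirt6mKO/mdx library, and 3 with total counts.

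With no minimum mean 989, 168 and 221 genes were called in mdx against control, Sirt6mKO/mdx against mdx and Sirt6mKO/mdx against control, in place of 2265, 1300 and 1253. With 1 prior variance limma called 541, 0 and 87, the 0 with a lowest adjusted p of 0.054 and 3156 genes at an unadjusted p under 0.05, and with total counts 3411 and 3147 in the comparisons of Sirt6mKO/mdx. Among partners, regulators and targets, calls were 17, 7 and 1 with no minimum mean and 9, 0 and 1 with 1 prior variance, and 24 against control with total counts. Leaving out 1 library gave 939 to 2356, 203 to 1475 and 213 to 1314 genes. The count fell by over 1.5 times in mdx against control without mdx 1 (939), mdx 2 (1330) or control 1 (1391). In Sirt6mKO/mdx against mdx it did so without mdx 1 (481), mdx 2 (386), Sirt6mKO/mdx 1 (203) and 2 (254), and against control without control 2 (572), Sirt6mKO/mdx 1 (361) and 2 (213). Calls among the listed genes ranged from 8 to 19 in Sirt6mKO/mdx against mdx and from 1 to 9 against control. The cause was not tested.

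Replicate numbers did not pair the libraries: deviations from group means correlated at -0.13, 0.12 and 0.0093 between groups. With the replicate block 2415, 1510 and 1404 genes were called, and no member changed its call. Single values of Batf, at most 13 reads, are limited by depth.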

Other observations

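The AP-1 targets Il6, Ccl2 and Mmp12 were picked out after their values were seen. Il6, a cytokine gene, stood at 18 and 8 for control, 4 and 0 for mdx, and 51 and 130 for Sirt6mKO/mdx, where it was higher than in mdx by limma (5.21 ± 0.90, adjusted p = 0.00246) but not than in control (2.66 ± 0.90, adjusted p = 0.0806). The chemokine gene Ccl2 had 183 and 108, 98 and 33, and 135 and 276, with a log2 fold change of 1.74 ± 0.48 in Sirt6mKO/mdx against mdx (adjusted p = 0.035). Mmp12, a protease gene known from macrophages, was at 0 and 1, 4 and 2, and 9 and 169, and its call against control (4.87 ± 1.25, adjusted p = 0.025) rests on the Sirt6mKO/mdx library 2. The summed leukocyte markers were highest in the same group, at 248 and 215, and C1qa, a complement gene of macrophages, had 0 and 0 for control, 7 and 2 for mdx, and 8 and 17 for Sirt6mKO/mdx. The groups overlapped for others, among them Lyz2 (0 and 14, 47 and 26, and 39 and 67) and Csf1r (18 and 27, 9 and 21, and 28 and 15). The part of leukocytes in these values was not tested.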
